A study of Arabidopsis thaliana with 12 samples.

Results

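Aliphatic glucosinolates are the sulfur-rich defence compounds that Arabidopsis thaliana makes from methionine, and 10 genes of their synthesis are described here across 12 root transcriptomes. The genes were chosen by name, as the known regulators and main enzymes of the pathway, with earlier results of these data known. They were found by their locus identifiers in the deposited expression table and are 10 of its 37884 genes. MYB28 (AT5G61420), MYB29 (AT5G07690) and MYB76 (AT5G07700) are the regulators. BCAT4 (AT3G19710), BAT5 (AT4G12030), MAM1 (AT5G23010) and MAM3 (AT5G23020) lengthen the side chain of methionine. CYP79F1 (AT1G16410), CYP79F2 (AT1G16400) and CYP83A1 (AT4G13770) begin the core structure.

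In the first stage of the pathway BCAT4 removes the amino group of methionine in the cytosol, BAT5 carries the resulting 2-oxo acid into the plastid, and the methylthioalkylmalate synthases MAM1 and MAM3 join it to acetyl-CoA, so that each turn of the cycle adds a carbon. In the second stage a CYP79F enzyme turns the elongated methionine into an aldoxime, which CYP83A1 oxidises before sulfur, glucose and sulfate are added. MAM1 serves short chains, whereas MAM3 also makes long ones; CYP79F1 accepts short and long chains, whereas CYP79F2 accepts long ones. MYB28, MYB29 and MYB76 are related R2R3-MYB transcription factors that switch these genes on together with MYC proteins. Both shoots and roots hold aliphatic glucosinolates, and transporters move them between the organs.

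The study sequenced polyadenylated RNA from the roots of 4-day-old seedlings on plates of 1/2 MS medium, to find genes downstream of the AP2/ERF transcription factors ERF115 and ERF114. There were 3 libraries of each of 4 genotypes. ERF115OX carried 35S:ERF115, ERF114OX carried 35S:ERF114, and ERF115-SRDX carried 35S:ERF115-SRDX, in which the SRDX repression domain is fused to ERF115 so that the protein represses its targets; WT was the untransformed Col-0 accession. The titles name the ERF114OX libraries as such, while their genotype label adds ERF115OX to 35S:ERF114; here they are grouped by title. The 35S promoter of cauliflower mosaic virus is active in nearly all tissues, so each line is a model of ectopic expression, and the labels do not say how many independent lines or how many plants stand behind a library. They do not say either that the 3 libraries of a genotype came from separate cultures, so the spread behind the p-values is that of these libraries alone and may be technical.

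Each library held between 47242114 and 48343410 reads counted to genes. Values are normalized counts, that is read counts divided by the authors' size factor of the library. ERF115 stood at 34638 to 38360 normalized counts in ERF115OX, 2.90 to 10.6 in ERF114OX and 83518 to 88807 in ERF115-SRDX. It stood at 4.86, 23.4 and 560.7 in the WT libraries, of which WT 3 was the high one. ERF114 stood at 44417 to 47807 in ERF114OX and 10.7 to 35.0 in WT. In the ERF115OX libraries ERF114 was uneven, at 2.01, 92.5 and 104, and in ERF115-SRDX it stood at 12.5 to 24.2. A list of 12 root identity genes had a mean log2 level between 10.48 and 10.79 in every library. Of these, 3 were called higher than WT in both ERF115OX and ERF114OX and 0 in ERF115-SRDX: the root hair genes EXPA7 (log2 change 0.68 ± 0.06 SE in the ERF115OX line and 0.58 ± 0.06 in the ERF114OX line) and COBL9 (0.55 ± 0.09 and 0.65 ± 0.09), and the root patterning regulator SHR (0.43 ± 0.08 and 0.49 ± 0.08), with limma adjusted p-values of at most 0.00124. Over all genes tested 16.4% were called higher in ERF115OX and 17.5% in ERF114OX. The part of root cell composition in the results below was not tested. The libraries were less alike in shoot RNA: 19 photosynthesis genes summed to 0.718 to 0.995% of all normalized counts in ERF115OX, 0.313, 1.01 and 0.970% in ERF114OX, 0.0247, 0.327 and 0.0269% in ERF115-SRDX, and 1.23 to 2.52% in WT. ERF114OX 1 thus stood below its 2 sister libraries, and ERF115-SRDX 2 above its own.

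The 10 genes did not move as a block. ERF114OX had less of every member that could be tested (8 of 8 called lower than WT, where 19.6% of all genes tested were). ERF115OX had few calls against WT. In ERF115-SRDX 3 of 8 were called higher and 3 lower, where 23.4 and 26.6% of all genes tested were. Of the 10 genes, 8 reached the mean of 10 normalized counts over the 12 libraries that a test required. They were tested with limma on log2(normalized count + 1) in 1 fit of all 12 libraries, and calls were made at p under 0.05 after Benjamini-Hochberg adjustment over the 23375 genes tested. Changes are given on that log2 scale with their standard errors, a positive one being higher in the group named first, and the scale understates the change of genes with few counts. MYB29, with a mean of 9.83, and MYB76, with 0.172, fell below the requirement and are given by their values. Roots are a mixed tissue, and in these bulk libraries fewer cells of a type cannot be told apart from less RNA per cell.

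**Figure D1:**
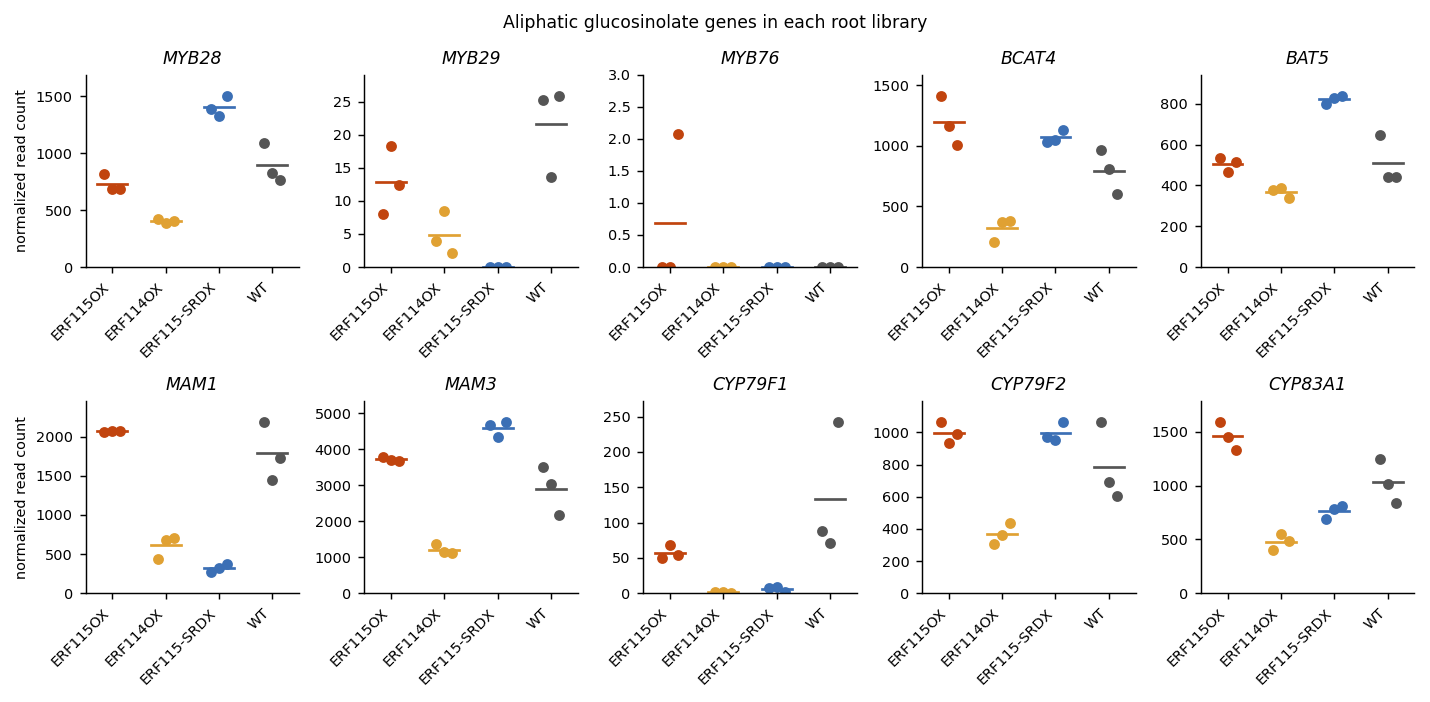
Normalized read count of each of the 10 genes (vertical axes, each from 0) by genotype, with a point for each of 3 libraries and a bar at the mean. ERF114OX is the lowest genotype for MYB28, MAM3, CYP79F2, CYP83A1, BCAT4 and BAT5, whereas MAM1 and MYB29 are lowest in ERF115-SRDX.

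Of the 3 regulators MYB28 was the most abundant, with 470.0 normalized counts per kilobase of transcript in WT against 12.5 for MYB29. Its level was 818, 687 and 687 normalized counts in the ERF115OX libraries, 424, 382 and 408 in ERF114OX, 1388, 1324 and 1502 in ERF115-SRDX, and 1091, 827 and 759.9 in WT. The ERF114OX libraries all lay below, and the ERF115-SRDX libraries all above, those of every other genotype, while ERF115OX and WT overlapped. MYB28 was 2.18-fold lower in ERF114OX than in WT (log2 change -1.12 ± 0.12 SE, n = 3 each, limma adjusted p = 5.0e-05) and 1.59-fold higher in ERF115-SRDX than in WT (0.67 ± 0.12, limma adjusted p = 0.000453). The change in ERF115OX was -0.28 ± 0.12 (limma adjusted p = 0.0983), and it was called lower without WT 3 (lowest adjusted p over all settings 0.0187).

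MYB29, which acts beside MYB28 and is known for its response to methyl jasmonate, was scarce. It was read 8, 18 and 12 times in the ERF115OX libraries, 4, 8 and 2 times in ERF114OX, 0 times in each ERF115-SRDX library and 26, 14 and 26 times in WT. The mean was 12.9 ± 5.14 normalized counts in ERF115OX, 4.81 ± 3.30 in ERF114OX and 21.6 ± 6.89 in WT (SD, n = 3 each). No ERF115-SRDX library held a read of MYB29, and every library of the other 3 genotypes held at least 2. Set against a floor of 3 reads per library, or 3.04 normalized counts in ERF115-SRDX, its level there was at least 7.11-fold lower than in WT, at least 4.25-fold lower than in ERF115OX and at least 1.58-fold lower than in ERF114OX. With no filter on low values, limma called MYB29 lower in ERF115-SRDX than in WT (adjusted p = 5.7e-06) and lower in ERF114OX than in WT (-2.06 ± 0.45, adjusted p = 0.00531), but not in ERF115OX (-0.71 ± 0.45, adjusted p = 0.297). Thus the ERF115-SRDX roots, which had the most MYB28, had no detectable MYB29 at this depth. MYB76, the third activator, gave 2 reads in ERF115OX 3 and none in the other 11 libraries.

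Of the chain elongation genes, BCAT4 and BAT5 act before the synthases. BCAT4, the methionine aminotransferase, stood at 1410.3, 1166 and 1009 normalized counts in ERF115OX, 205, 372 and 377 in ERF114OX, 1031, 1051 and 1131 in ERF115-SRDX, and 967, 812 and 603 in WT. Every ERF114OX library was below every WT library, and every ERF115OX and ERF115-SRDX library was above the highest of WT. BCAT4 was 2.54-fold lower in ERF114OX than in WT (-1.34 ± 0.22 SE, limma adjusted p = 0.000771). The changes in ERF115OX (0.60 ± 0.22, limma adjusted p = 0.0559) and in ERF115-SRDX (0.46 ± 0.22, limma adjusted p = 0.109) missed the threshold, although neither group overlapped with WT; ERF115OX passed it in 7 of 20 settings, among them leaving out WT 1 (lowest adjusted p = 0.00979), and ERF115-SRDX in 4 (lowest 0.038).

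BAT5, the transporter of the plastid envelope, had 534, 465 and 517 normalized counts in ERF115OX, 376, 388 and 338 in ERF114OX, 799, 830.2 and 838 in ERF115-SRDX, and 648, 443 and 441 in WT. The ERF115-SRDX libraries lay above all others and the ERF114OX libraries below all others. BAT5 was 1.64-fold higher in ERF115-SRDX than in WT (0.71 ± 0.13, limma adjusted p = 0.00052) and 1.37-fold lower in ERF114OX (-0.45 ± 0.13, limma adjusted p = 0.0165). In ERF115OX it differed by 0.01 ± 0.13 (limma adjusted p = 0.981).

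MAM1 and MAM3 are neighbouring genes, and they parted in ERF115-SRDX. MAM1 had 2052, 2067 and 2074 normalized counts in ERF115OX, 437, 686 and 708 in ERF114OX, 274, 329 and 373 in ERF115-SRDX, and 2182, 1447 and 1727 in WT. MAM3 had 3791, 3699.7 and 3657 normalized counts in ERF115OX, 1360.2, 1156 and 1125 in ERF114OX, 4658, 4333 and 4746 in ERF115-SRDX, and 3506, 3034 and 2183 in WT. ERF115-SRDX thus held the lowest MAM1 levels and the highest MAM3 levels of the study, and in both genes ERF114OX lay below WT without overlap.

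MAM1 was 5.44-fold lower in ERF115-SRDX than in WT (-2.44 ± 0.18 SE, limma adjusted p = 2.7e-07), whereas MAM3 was 1.60-fold higher there (0.68 ± 0.13, limma adjusted p = 0.000882). In ERF114OX both fell, MAM1 by 1.56 ± 0.18 (limma adjusted p = 8.93e-05) and MAM3 by 1.24 ± 0.13 (limma adjusted p = 5.3e-05) on the log2 scale. In ERF115OX MAM3 was 1.302-fold higher than in WT (0.38 ± 0.13, limma adjusted p = 0.0457), a call that was lost in 13 of 20 alternative settings (highest adjusted p = 0.137), among them leaving out ERF115OX 1, ERF115OX 2, ERF115OX 3, WT 2 or WT 3. MAM1 in ERF115OX differed from WT by 0.23 ± 0.18 (limma adjusted p = 0.368).

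The CYP79F genes are likewise neighbours, and the scarce member of the pair was the one that moved most. CYP79F1 was read 50, 67 and 52 times in the ERF115OX libraries, 2, 2 and 0 times in ERF114OX, 8, 8 and 2 times in ERF115-SRDX, and 91, 73 and 243 times in WT. Its mean was 57.4 ± 9.43 normalized counts in ERF115OX, 1.35 ± 1.17 in ERF114OX, 6.13 ± 3.60 in ERF115-SRDX and 134 ± 94.0 in WT (SD, n = 3 each). Every ERF115OX library lay below WT, and the ERF114OX and ERF115-SRDX libraries, which overlapped with each other, lay far below both. The ERF114OX libraries held at most 2 reads, under the floor of 3.

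On the log2 scale CYP79F1 fell by 5.80 ± 0.59 SE in ERF114OX (limma adjusted p = 3.64e-05; from -6.63 to -4.51 over the settings tried) and by 4.20 ± 0.59 in ERF115-SRDX (limma adjusted p = 6.59e-05), both against WT. In ERF115OX it lay below WT in every library, with a change of -1.005 ± 0.59 that limma did not call (adjusted p = 0.217), while edgeR and DESeq2 on the recovered reads did (lowest adjusted p = 0.027). WT 3, with 243 reads, was the WT library with the most CYP79F1, ERF115 and photosynthesis RNA.

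CYP79F2, the long-chain enzyme, had 1062, 934 and 989.8 normalized counts in ERF115OX, 307, 365 and 439 in ERF114OX, 968, 952 and 1063 in ERF115-SRDX, and 1061, 689.7 and 604 in WT. Only ERF114OX stood apart, below the other 3 genotypes without overlap. CYP79F2 was 2.08-fold lower there than in WT (-1.05 ± 0.18, limma adjusted p = 0.000834), and the changes of 0.38 ± 0.18 in ERF115OX (limma adjusted p = 0.117) and 0.38 ± 0.18 in ERF115-SRDX (limma adjusted p = 0.0922) missed the threshold, which both passed without WT 1 (adjusted p = 0.0068 and 0.00218).

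CYP83A1, which takes the aldoximes of both CYP79F enzymes, had 1589, 1456 and 1328 normalized counts in ERF115OX, 399.8, 547 and 482 in ERF114OX, 690.3, 781 and 813 in ERF115-SRDX, and 1250.1, 1014 and 842 in WT. The 4 genotypes did not overlap, in the falling order ERF115OX, WT, ERF115-SRDX, ERF114OX. CYP83A1 was 1.42-fold higher in ERF115OX than in WT (0.51 ± 0.14 SE, limma adjusted p = 0.0173), 2.16-fold lower in ERF114OX (-1.11 ± 0.14, limma adjusted p = 0.000156) and 1.34-fold lower in ERF115-SRDX (-0.43 ± 0.14, limma adjusted p = 0.0246). The call in ERF115OX was lost without ERF115OX 1 or without WT 3 (highest adjusted p over all settings 0.0876), and that in ERF115-SRDX without ERF115-SRDX 1 or without WT 1 (highest 0.587).

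**Figure D2:**
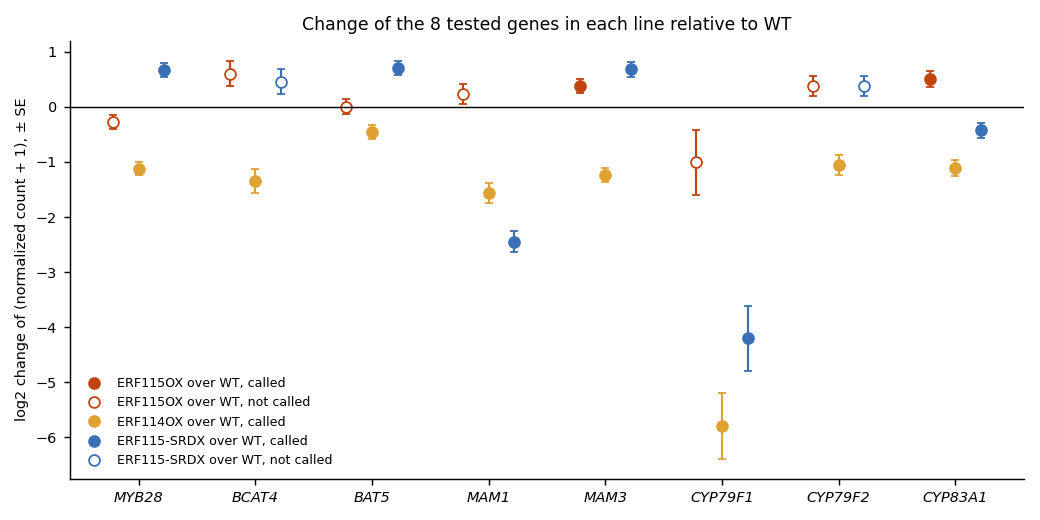
Log2 change of (normalized count + 1) of the 8 tested genes (horizontal axis) against WT in ERF115OX, ERF114OX and ERF115-SRDX, with bars of 1 standard error of the limma fit; filled points are called at an adjusted p under 0.05 and open ones are not. All ERF114OX points are filled and below 0, whereas the ERF115-SRDX points run from -4.20 for CYP79F1 to 0.71 for BAT5.

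Per kilobase of the longest transcript in the TAIR10.1 annotation, which puts genes of unequal length on 1 scale, the members differed widely within WT. MAM3 had the highest level there, 1590 normalized counts per kilobase, followed by MAM1 with 928, BCAT4 with 547, CYP83A1 with 542, MYB28 with 470.0, CYP79F2 with 389, BAT5 with 231, CYP79F1 with 48.8 and MYB29 with 12.5. In ERF115-SRDX MAM3 had 2503 and MAM1 169 on this scale. In every genotype CYP79F2 exceeded CYP79F1 per kilobase, by 493 against 20.9 in ERF115OX, 184 against 0.493 in ERF114OX, 493 against 2.24 in ERF115-SRDX and 389 against 48.8 in WT.

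Counted together, ERF114OX had 8 of 8 tested members called lower than WT, where 19.6% of all genes tested were called lower, and the median change of the 8 was -1.18 against -0.01 over all genes tested. With quantile normalization the calls over all genes shifted to 5136 higher and 3724 lower, against 4093 higher and 4581 lower as deposited, and BAT5 lost its call. BAT5 also lost it without ERF114OX 3 and when only the groups compared were fitted (highest limma adjusted p over all settings 0.0635).

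In ERF115OX 2 of 8 members, CYP83A1 and MAM3, were called higher than WT and 0 lower, where 16.4% of all genes tested were called higher and 15.7% lower; the median change was 0.31 against -0.00 over all genes tested. At an unadjusted p under 0.05 limma had 1 member lower, MYB28, and both edgeR and DESeq2 on the recovered reads called CYP79F1 lower. The count of 2 ran from 0 without ERF115OX 1 to 4 without WT 1, and it was 1 when ERF115OX 2, ERF115OX 3, WT 2 or WT 3 was left out. Without WT 3 the 1 call was MYB28, lower, and neither CYP83A1 nor MAM3 kept its call. In ERF115-SRDX 3 of 8 members were called higher than WT (MYB28, MAM3 and BAT5) and 3 lower (MAM1, CYP79F1 and CYP83A1), where 23.4% of all genes tested were called higher and 26.6% lower. Their median change was 0.42 against -0.00 over all genes tested. Counts of 3 of 8 each way lie not far above these shares, so they are not read as a trait of the pathway. MYB28, MAM3 and CYP83A1 lost their calls with the photosynthesis level as a covariate.

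The overexpression lines were also compared with each other, with the spread between libraries still estimated over all 12, WT included. ERF115OX exceeded ERF114OX in 7 of 8 members, where 4.77% of all genes tested were called higher and 2.13% lower, and the median change was 1.62 against 0.00 over all genes tested. The changes were 4.79 ± 0.59 SE for CYP79F1, 1.95 ± 0.22 for BCAT4, 1.79 ± 0.18 for MAM1, 1.62 ± 0.14 for CYP83A1, 1.62 ± 0.13 for MAM3, 1.44 ± 0.18 for CYP79F2 and 0.85 ± 0.12 for MYB28, with limma adjusted p-values between 4.26e-05 for MAM3 and 0.00172 for MYB28. BAT5 differed by 0.46 ± 0.13 (limma adjusted p = 0.0546). The libraries of the 2 lines did not overlap for any of the 8 members, where 25.7% of all genes tested did not overlap in either direction. MYB28 thus differed 1.80-fold between the lines and the called enzymes by 2.71-fold, for CYP79F2, or more.

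Between ERF115OX and ERF115-SRDX, which carry the same factor without and with the repression domain, 3 of 8 members were called higher in ERF115OX, where 29.6% of all genes tested were, and 2 lower, where 26.4% were. MAM1 was 6.38-fold higher in ERF115OX (2.67 ± 0.18, limma adjusted p = 9.01e-08), CYP79F1 9.17-fold (3.20 ± 0.59, limma adjusted p = 0.000548) and CYP83A1 1.91-fold (0.94 ± 0.14, limma adjusted p = 0.000113). MYB28 was 1.92-fold lower in ERF115OX (-0.94 ± 0.12, limma adjusted p = 2.39e-05) and BAT5 1.63-fold lower (-0.70 ± 0.13, limma adjusted p = 0.000514). MAM3, BCAT4 and CYP79F2 were not called in this comparison, with changes of -0.30 ± 0.13, 0.15 ± 0.22 and 0.00 ± 0.18.

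Between ERF114OX and ERF115-SRDX, 1 member was called higher in ERF114OX, where 30.0% of all genes tested were, and 7 lower, where 26.0% were. The higher one was MAM1 (0.88 ± 0.18, limma adjusted p = 0.00132). Of the lower ones, MAM3 fell by 1.92 ± 0.13 and MYB28 by 1.79 ± 0.12 on the log2 scale, and CYP79F1 lost its call in 9 of 19 settings (highest adjusted p = 0.153), among them leaving out ERF114OX 3, ERF115-SRDX 1 or ERF115-SRDX 2.

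**Figure D3:**
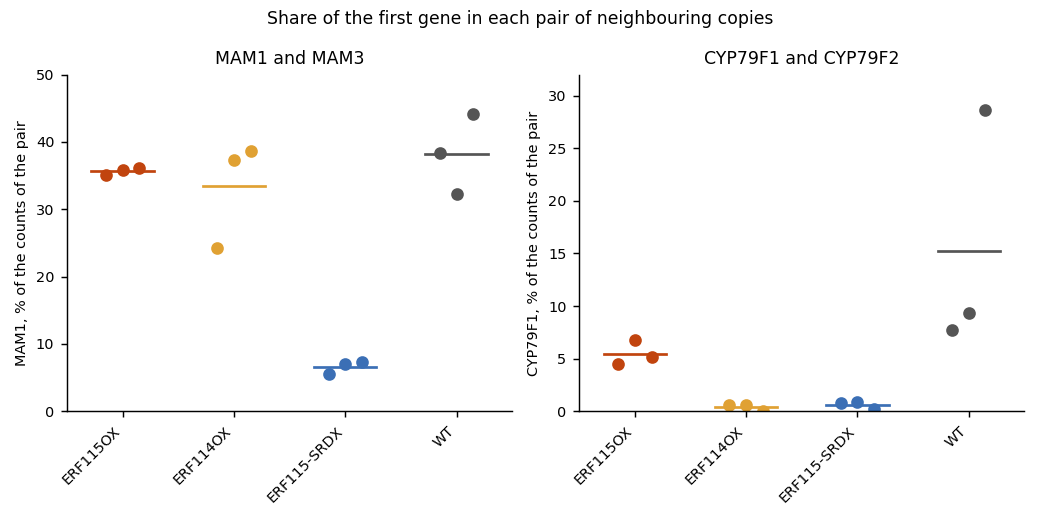
Share of MAM1 in the summed normalized counts of MAM1 and MAM3, and of CYP79F1 in those of CYP79F1 and CYP79F2, in percent, with a point per library. MAM1 holds 5.56 to 7.28% of its pair in ERF115-SRDX and 32.3 to 44.2% in WT; CYP79F1 holds at most 0.870% in ERF114OX and ERF115-SRDX.

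Because a share within a library does not depend on how that library was scaled, the neighbouring pairs were also compared as shares of their summed normalized counts. MAM1 made up 35.1, 35.8 and 36.2% of MAM1 and MAM3 in ERF115OX, 24.3, 37.2 and 38.6% in ERF114OX, 5.56, 7.06 and 7.28% in ERF115-SRDX, and 38.4, 32.3 and 44.2% in WT. The low shares were those of ERF115-SRDX, and the other 3 genotypes overlapped, so that in ERF114OX the pair was reduced while its share lay within the range of WT in 2 of 3 libraries. The log2 ratio of MAM1 to MAM3 averaged -3.82 ± 0.23 in ERF115-SRDX and -0.70 ± 0.37 in WT (SD, n = 3 each; exact permutation test, two-sided p = 0.1, the smallest that 3 against 3 libraries allow). The ERF114OX ratio averaged -1.02 ± 0.54 (exact permutation p against WT 0.5).

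CYP79F1 made up 4.53, 6.80 and 5.15% of its pair in ERF115OX, 0.627, 0.576 and 0% in ERF114OX, 0.826, 0.870 and 0.186% in ERF115-SRDX, and 7.69, 9.36 and 28.6% in WT. ERF114OX and ERF115-SRDX, which differed 2.71-fold in CYP79F2, overlapped in this share (exact permutation p = 0.6 on the log2 ratio), and ERF115OX lay below WT in every library. In the TAIR10.1 assembly the coding sequences of MAM1 and MAM3 are 84.2% identical with no 100-base window in common, and those of CYP79F1 and CYP79F2 are 91.9% identical with 0.066% of such windows in common. The counting rule for reads that match both copies is not given in the sources used here, so the levels of each pair are uncertain to the extent that reads were shared or dropped.

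Roots should hold little RNA of photosynthesis genes, and its level in each library was set beside the members. The mean log2 level of the 19 photosynthesis genes was 14.24, 13.74 and 13.82 in ERF115OX, 12.54, 14.34 and 14.28 in ERF114OX, 8.43, 12.81 and 8.79 in ERF115-SRDX, and 15.15, 14.60 and 15.67 in WT. All 3 transgenic lines lay below WT. Limma called 0 of 19 in ERF115OX, 0 of 19 in ERF114OX and 19 of 19 lower in ERF115-SRDX, with medians of -1.15, -1.41 and -4.97 in that order. At an unadjusted p under 0.05 it had 0 lower in ERF115OX and 1 in ERF114OX, and edgeR and DESeq2 also called 0 in both lines. With ERF114OX 1 and ERF115-SRDX 2 left out it called 19 lower in ERF115OX and 16 lower in ERF114OX. Leaving out libraries changes the spread used for every gene. The share of all genes called in that setting is not given here, so these counts have no background beside them. Of 12 genes of the aerial epidermis 9 could be tested, with 6 called lower in the ERF115OX line, 7 in the ERF114OX line and 9 in the ERF115-SRDX line, where 15.7, 19.6 and 26.6% of all genes tested were called lower. The share of the 12 of all normalized counts ran from 0.0185 to 0.0225% in ERF115OX, 0.0093 to 0.0167% in ERF114OX, 0.00743 to 0.00929% in ERF115-SRDX and 0.0293 to 0.0466% in WT, with none of the 12 at 0 in any WT library and 2 to 4 of them at 0 in the ERF115-SRDX libraries.

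**Figure D4:**
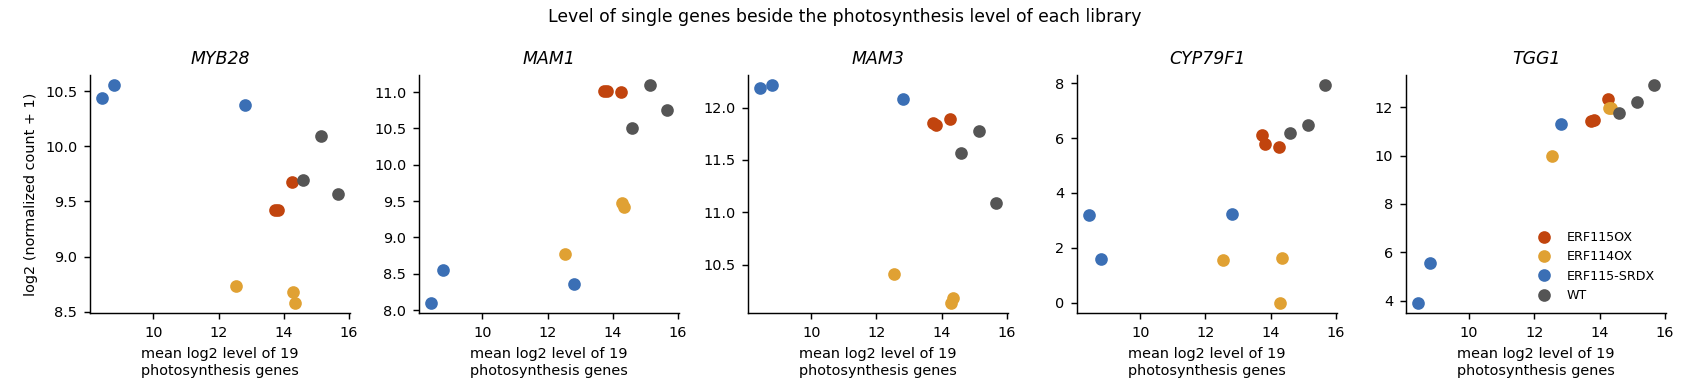
Level of MYB28, MAM1, MAM3, CYP79F1 and the myrosinase gene TGG1 (vertical axes, log2 of the normalized count + 1) against the mean log2 level of the 19 photosynthesis genes, with a point per library and a colour per genotype. The ERF115-SRDX library at a shoot level of 12.81 sits at the height of the 2 libraries near 8.43 and 8.79 for MYB28, MAM1 and MAM3, and well above them for TGG1.

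Within the lines whose libraries differ in shoot RNA, some members moved little and others more. ERF115-SRDX 2 had over 10 times the photosynthesis share of ERF115-SRDX 1, and its members stayed close to those of its sisters, with MAM1 at 329 normalized counts against 274 and 373, MAM3 at 4333 against 4658 and 4746, and MYB28 at 1324 against 1388 and 1502. ERF114OX 1, the ERF114OX library with the least shoot RNA, had less MAM1 (437 against 686 and 708) and less BCAT4 (205 against 372 and 377) than its sisters. It also had less CYP79F2 (307 against 365 and 439) and less CYP83A1 (399.8 against 547 and 482). BAT5 lay between its sisters (376 against 388 and 338). ERF114OX 1 had more MAM3 (1360.2 against 1156 and 1125) and about as much MYB28 (424 against 382 and 408). With the photosynthesis level as a covariate, limma kept all 8 calls in ERF114OX against WT. In ERF115-SRDX against WT it kept MAM1 (-2.05, adjusted p = 0.000252), CYP79F1 (-3.47, adjusted p = 0.0321) and BAT5 (0.73, adjusted p = 0.0448), and lost MYB28 (0.52, adjusted p = 0.114), MAM3 (0.38, adjusted p = 0.265) and CYP83A1 (-0.23, adjusted p = 0.587).

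The covariate separates genotype from shoot content poorly in that comparison. The highest ERF115-SRDX library stood at 12.81 and the lowest WT library at 14.60, and across that gap genotype and shoot content cannot be told apart. ERF114OX did not overlap with WT in the photosynthesis level either, its highest library standing at 14.34. The calls kept in ERF114OX thus carry the same limit, over a smaller gap. In an alternative chosen after seeing the data, with ERF115-SRDX 1 and 3 left out, the lone ERF115-SRDX library being assumed to vary like the other groups, limma called MYB28 (0.59, adjusted p = 0.0268), MAM3 (0.60, adjusted p = 0.038), BAT5 (0.72, adjusted p = 0.0163), MAM1 (-2.42, adjusted p = 3.79e-05) and CYP79F1 (-3.64, adjusted p = 0.0031), but not CYP83A1 (-0.39, adjusted p = 0.188).

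The other genes of the pathway were counted in lists by their step, and each count is read against the shares called over all genes tested. These shares were 16.4% higher and 15.7% lower in ERF115OX, 17.5% higher and 19.6% lower in ERF114OX, and 23.4% higher and 26.6% lower in ERF115-SRDX. The 5 remaining chain elongation genes are the aminotransferase BCAT3, the isopropylmalate isomerase subunits IPMI LSU1, IPMI SSU2 and IPMI SSU3, and the dehydrogenase IPMDH1. In ERF115OX 3 of 5 were called higher than WT and 0 lower (median 0.44), in ERF114OX 0 higher and 3 lower (median -0.67), and in ERF115-SRDX 2 higher and 0 lower (median 0.11). No gene of the 5 went the other way in these lines at an unadjusted p under 0.05 or in edgeR or DESeq2. IPMI SSU3 had 1049, 1155 and 1226 normalized counts in ERF115OX, 424, 456 and 459 in ERF114OX, 696, 797 and 819.5 in ERF115-SRDX, and 1007, 727 and 578 in WT. It was higher in ERF115OX (0.60 ± 0.15 SE, limma adjusted p = 0.011) and lower in ERF114OX (-0.75 ± 0.15, limma adjusted p = 0.00286). IPMI SSU2 fell by 0.95 ± 0.17 and IPMDH1 by 0.67 ± 0.13 in ERF114OX, IPMI LSU1 was higher by 0.30 ± 0.07 in ERF115OX and 0.39 ± 0.07 in ERF115-SRDX, and IPMDH1 was higher by 0.46 ± 0.13 in ERF115OX and 0.40 ± 0.13 in ERF115-SRDX. The call of IPMDH1 in ERF115OX was lost without ERF115OX 2 or WT 3 (highest adjusted p over all settings 0.0693). In ERF115-SRDX the IPMDH1 call was lost in 7 of 20 settings (highest 0.232). Among them were the photosynthesis covariate, a fit of only the groups compared, and leaving out ERF115-SRDX 3, WT 2 or WT 3. The call of IPMI LSU1 in ERF115-SRDX was lost with the photosynthesis covariate (limma adjusted p = 0.0681).

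Of the 10 other core genes, which conjugate, cleave, glucosylate and sulfate the intermediate, 4 were called higher in ERF115OX and 0 lower (median 0.15), 0 higher and 4 lower in ERF114OX (median -0.12), and 7 higher and 1 lower in ERF115-SRDX (median 0.41), where 16.4, 17.5 and 23.4% of all genes tested were called higher and 15.7, 19.6 and 26.6% lower; in ERF115OX 1 was lower at an unadjusted p under 0.05 and was called by edgeR and DESeq2. GSTU20, a glutathione transferase assigned to the aliphatic branch, had 1219, 1329 and 1149 normalized counts in ERF115OX, 483, 549 and 581 in ERF114OX, 847, 988 and 1043 in ERF115-SRDX, and 1995, 1340.4 and 1488 in WT. All 3 lines lay below WT, and the fall was called in ERF114OX (by 1.56 ± 0.13, limma adjusted p = 1.11e-05) and ERF115-SRDX (by 0.73 ± 0.13, limma adjusted p = 0.000508; 0.136 with the photosynthesis covariate). In ERF114OX UGT74C1, a glucosyltransferase of the aliphatic branch, fell by 0.98 ± 0.16 and GSTF11, another glutathione transferase, by 1.01 ± 0.23.

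The core genes that rose in ERF115-SRDX included SOT17, as well as UGT74B1 and APK2, which also serve indolic glucosinolates. The desulfoglucosinolate sulfotransferase SOT17 had 2194, 2080.2 and 2032 normalized counts in ERF115-SRDX and 1094, 948 and 909 in WT, a change of 1.098 ± 0.08 SE (limma adjusted p = 1.18e-07). UGT74B1, a glucosyltransferase of wide substrate range, rose by 0.95 ± 0.07 and APK2, a kinase that makes the sulfate donor PAPS, by 0.80 ± 0.05. In ERF115OX the sulfotransferase SOT18 was higher by 0.44 ± 0.09 and the kinase APK1 by 0.28 ± 0.06; APK2 was higher by 0.14 ± 0.05, a call lost in 10 settings (highest adjusted p = 0.108), among them leaving out ERF115OX 2, ERF115OX 3, WT 2 or WT 3.

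Of the 9 genes that modify the finished side chain 7 could be tested. In ERF115OX 1 was called higher and 1 lower (median -0.09), in ERF114OX 2 higher and 5 lower (median -1.16), and in ERF115-SRDX 2 higher and 1 lower (median -0.13). The counts in ERF115OX lie near the 16.4% higher and 15.7% lower over all genes tested, and those in ERF115-SRDX near or below its 23.4 and 26.6%; in ERF114OX the shares over all genes were 17.5% higher and 19.6% lower. The S-oxygenases FMO GS-OX1 and FMO GS-OX3 fell in ERF114OX, by 1.97 ± 0.40 and 1.16 ± 0.18. The dioxygenase gene AOP2 had 0, 4.24 and 4.15 normalized counts there and 33.1, 13.7 and 21.9 in WT. It fell by 2.91 ± 0.66 (limma adjusted p = 0.00505). AOP3 was at 0 in all 12 libraries. Side chains themselves were not measured in these data. FMO GS-OX2 fell by 1.16 ± 0.34 in ERF115OX, a call lost without ERF115OX 1 or WT 1 (highest adjusted p = 0.107). RNA of GS-OH, another dioxygenase gene, was abundant in these roots. It had 18133, 18774 and 17938 normalized counts in ERF115-SRDX and 29340, 29074 and 29673 in WT. It fell by 0.68 ± 0.06 in ERF115-SRDX (limma adjusted p = 1.14e-06). FMO GS-OX5 was higher by 0.35 ± 0.08 in ERF115OX, by 0.29 ± 0.08 in ERF114OX and by 0.27 ± 0.08 in ERF115-SRDX. Its call in ERF114OX was lost without WT 1 (limma adjusted p = 0.0521). Its call in ERF115-SRDX was lost with the photosynthesis covariate and without ERF115-SRDX 2 or WT 1 (highest adjusted p over all settings 0.183). FMO GS-OX4 was higher by 0.22 ± 0.06 in ERF114OX and 0.33 ± 0.06 in ERF115-SRDX.

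**Figure D5:**
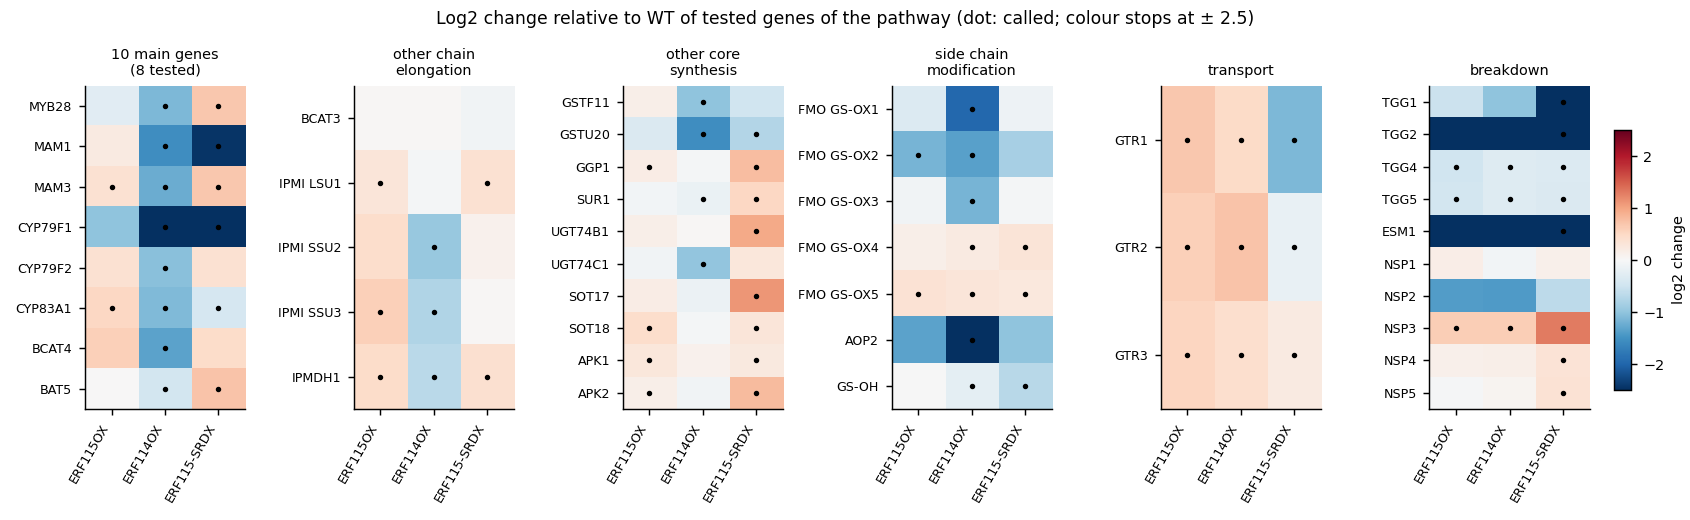
Log2 change against WT, as colour that stops at ± 2.5, of the tested genes of 6 lists (1 panel a list, 1 row a gene) in ERF115OX, ERF114OX and ERF115-SRDX (columns), with dots on genes called at an adjusted p under 0.05. In the ERF114OX column every dot of the main genes, the other chain elongation genes and the other core genes lies below 0, and the transport rows are above 0 in ERF115OX and ERF114OX.

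Of the 7 other regulators 2 were called higher and 0 lower in ERF115OX, 1 higher and 2 lower in ERF114OX, and 3 higher and 0 lower in ERF115-SRDX. Over all genes tested 16.4, 17.5 and 23.4% were called higher in these lines and 15.7, 19.6 and 26.6% lower. MYC2, a jasmonate-signalling factor that acts with the MYBs, had 4181, 4268 and 4377 normalized counts in ERF115-SRDX and 3050.3, 3060.2 and 3125 in WT, a change of 0.47 ± 0.06 (limma adjusted p = 3.37e-05). Its relative MYC3 rose by 0.33 ± 0.06 in that line. SDI1, a repressor of glucosinolate synthesis under sulfur deficiency, had 119.9, 140.3 and 131 normalized counts in ERF115OX, 77.5, 87.9 and 106 in ERF114OX, 477, 606 and 601 in ERF115-SRDX, and 116, 506 and 209 in WT. WT 2 thus reached the level of ERF115-SRDX. SDI1 was called lower in ERF114OX (-1.35 ± 0.38, limma adjusted p = 0.0147) and higher in ERF115-SRDX (1.27 ± 0.38, limma adjusted p = 0.0135), and both calls were lost when only the groups compared were fitted (highest adjusted p over all settings 0.0819 in ERF114OX and 0.191 in ERF115-SRDX). The smaller calls, MYC3 and MYC4 in ERF115OX and MYC2 and SLIM1 in ERF114OX, had changes between -0.23 and 0.21, and each was lost in at least 3 settings. Single libraries whose absence ended a call were ERF115OX 2, ERF115OX 3, WT 1 and WT 2 for MYC3, ERF115OX 1, ERF115OX 2 and WT 1 for MYC4, ERF114OX 2, ERF114OX 3 and WT 1 for MYC2, and ERF114OX 3 and WT 3 for SLIM1.

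The 3 transporter genes GTR1, GTR2 and GTR3, whose proteins import glucosinolates into cells, were called higher in both overexpression lines. Over all genes tested 16.4% were called higher in ERF115OX and 17.5% in ERF114OX. GTR1 had 2691, 2907 and 2803 normalized counts in ERF115OX, 2376, 2554 and 2386 in ERF114OX, 755, 892 and 781 in ERF115-SRDX, and 1753, 1808 and 1713 in WT. The 4 genotypes did not overlap. GTR1 was higher by 0.67 ± 0.07 SE in ERF115OX (limma adjusted p = 3.25e-05) and 0.47 ± 0.07 in ERF114OX (limma adjusted p = 0.000248), and fell by 1.12 ± 0.07 in ERF115-SRDX (limma adjusted p = 2.55e-08). GTR2 was higher by 0.59 ± 0.05 in ERF115OX and 0.71 ± 0.05 in ERF114OX, and GTR3 by 0.53 ± 0.08 and 0.42 ± 0.08. In ERF115-SRDX GTR2 changed by -0.18 ± 0.05 and GTR3 by 0.23 ± 0.08, where 26.6% of all genes tested were called lower and 23.4% higher. The GTR2 call was lost in 3 of 20 settings (highest adjusted p over all settings 0.713). Among them were the photosynthesis covariate and leaving out ERF115-SRDX 1. The GTR3 call was lost in 6 of 20 settings (highest 0.147). Among them were the photosynthesis covariate and leaving out ERF115-SRDX 1, ERF115-SRDX 2, WT 1 or WT 3.

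Of the 11 genes of glucosinolate breakdown 10 were tested, with 1 called higher and 2 lower in ERF115OX (median -0.48), 1 higher and 2 lower in ERF114OX (median -0.32), and 3 higher and 5 lower in ERF115-SRDX (median -0.36). The counts in ERF115OX and ERF114OX lie near the shares over all genes tested, 16.4 and 17.5% higher and 15.7 and 19.6% lower, as does the count of higher genes in ERF115-SRDX (23.4%, with 26.6% lower). NSP3, a nitrile specifier protein, had 1183, 1250.5 and 1233 normalized counts in ERF115OX, 1080.5, 1326 and 1295 in ERF114OX, 2056, 1904 and 1970.3 in ERF115-SRDX, and 830.1, 703 and 882 in WT, and rose in all 3 lines, by 0.61 ± 0.09, 0.62 ± 0.09 and 1.3 ± 0.09 in that order. Its relatives NSP4 and NSP5 rose in ERF115-SRDX, by 0.35 ± 0.09 and 0.36 ± 0.09, the call of NSP4 being lost with the photosynthesis covariate and with ERF115-SRDX 1 and 3 left out (highest adjusted p = 0.202). The root myrosinases TGG4 and TGG5 fell, by 0.49 ± 0.08 and 0.47 ± 0.08 in ERF115OX, 0.32 ± 0.08 and 0.32 ± 0.08 in ERF114OX, and 0.35 ± 0.08 and 0.37 ± 0.08 in ERF115-SRDX; in ERF115-SRDX both calls were lost with the photosynthesis covariate and with ERF115-SRDX 1 and 3 left out. In the shoot, TGG1 is the main myrosinase of guard cells, and here it had 5205, 2790 and 2855 normalized counts in ERF115OX, 1005, 3953 and 3986 in ERF114OX, 14.1, 2544 and 45.5 in ERF115-SRDX, and 4767, 3445 and 7665 in WT. Its lowest libraries within ERF114OX and ERF115-SRDX were those with the least photosynthesis RNA. TGG1 fell by 5.37 ± 1.36 in ERF115-SRDX (limma adjusted p = 0.00536), but the change was 2.32 with the photosynthesis level as a covariate. The call was also lost with edgeR and DESeq2 on the recovered reads and with ERF115-SRDX 1 and 3 left out (highest adjusted p = 0.319), and over all settings the change ran from -7.56 to 2.32.

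The indolic branch starts from tryptophan and is run by other MYB factors and CYP79 enzymes. Of its 16 genes 7 were called higher and 1 lower in ERF115OX (median 0.18), 4 higher and 3 lower in ERF114OX (median 0.06), and 10 higher and 3 lower in ERF115-SRDX (median 0.32). Over all genes tested 16.4, 17.5 and 23.4% were called higher in these lines and 15.7, 19.6 and 26.6% lower, so the counts in ERF114OX lie near the background. The medians against WT of the 8 aliphatic members were 0.31, -1.18 and 0.42 in the same lines. CYP79B2, the indolic counterpart of the CYP79F genes, had 9463, 9323 and 10014 normalized counts in ERF115OX, 7821, 7786 and 7899 in ERF114OX, 23491, 22077 and 20083 in ERF115-SRDX, and 9259, 9207 and 8482 in WT. It rose by 1.28 ± 0.06 in ERF115-SRDX (limma adjusted p = 4.1e-09), where CYP79F1 fell. In ERF114OX its change was -0.20 ± 0.06, a call lost without ERF114OX 2, ERF114OX 3, WT 1 or WT 2 (highest adjusted p = 0.0819).

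At the end of the indolic branch the methyltransferase IGMT1 had 7980.1, 10224 and 10357 normalized counts in ERF115OX, 12289, 15472 and 14744 in ERF114OX, 355, 433 and 359.9 in ERF115-SRDX, and 3443, 4180.1 and 4399 in WT. It rose by 1.25 ± 0.13 in ERF115OX and 1.82 ± 0.13 in ERF114OX and fell by 3.38 ± 0.13 in ERF115-SRDX (limma adjusted p = 4.5e-05, 2.69e-06 and 6.08e-10). IGMT2, a close relative, fell in all 3 lines, by 0.49 ± 0.10, 1.76 ± 0.10 and 1.70 ± 0.10. IGMT1 and IGMT2, like TGG4 and TGG5, are close copies of each other, and their levels carry the same uncertainty over shared reads as the MAM and CYP79F pairs. The sulfotransferase SOT16 rose by 0.24 ± 0.05 in ERF114OX and 0.87 ± 0.05 in ERF115-SRDX, and the methyltransferase IGMT5 rose by 0.51 ± 0.05 in ERF115-SRDX and fell by 0.24 ± 0.05 in ERF114OX. The glutathione transferase GSTF10 was higher by 0.44 ± 0.06 in ERF115OX and 0.41 ± 0.06 in ERF114OX and lower by 0.32 ± 0.06 in ERF115-SRDX (adjusted p up to 0.152 with the photosynthesis covariate or without ERF115-SRDX 1 and 3), and GSTF9 was higher by 0.40 ± 0.05 in ERF115OX.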

How the data were processed

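Polyadenylated RNA of 12 root samples, 3 of each of 4 genotypes, was sequenced. HISAT2 2.2.1, SAMtools 1.11, Trimmomatic 0.39, DESeq2 and featureCounts (Subread 2.0.1) are named in the submitters' processing notes. Not given in the sources used here are the DESeq2 version, the build and annotation, the strand setting and any filter. The authors deposited DESeq2 normalized counts, a signal of read counts per gene divided by the size factor of the library. Dividing by the smallest step of each library gave whole reads for all but 1 of the 316348 values above 0 (relative tolerance 1e-06), and reads were used for depth, for the floor of 3 reads and for the count tests among the alternatives. Each library had 47242114 to 48343410 reads on genes, so 3 reads are worth 2.90 to 3.18 normalized counts; such floors cover counting error only.

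The 23375 of 37884 genes that reached a mean of 10 were tested with limma 3.58.1 with a trend (R 4.3.3) on log2(value + 1), with all 12 libraries in 1 fit, 6 comparisons, two-sided, and Benjamini-Hochberg adjustment over all genes tested. Ratios of neighbouring genes were compared by exact permutation tests. The code was tested on simulated data. Alternatives were other pseudocounts, filters and scalings, edgeR 4.0.16 and DESeq2 1.42.0 on the recovered reads, smaller sets of libraries, a replicate block and the photosynthesis level as a covariate. Transcript lengths and coding identities came from TAIR10.1, whose locus tags matched all 37884 identifiers; no coordinates are given. Replicates of a genotype differed beyond sampling noise (chi-square per degree of freedom 5.05 to 40.2).

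All 10 members were named; from each other list, the 3 called genes with the smallest p in each direction and comparison against WT. AOP3 was named after its values were seen. Members and lists were chosen with earlier results of these data known.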

Additional observations from a re-analysis of the deposited data

How the results depend on the processing

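No called member changed direction in any of the settings tried: of 954 values for the 8 tested members in 6 comparisons, 894 kept their side of the threshold (uncalled changes near 0, such as that of BAT5 in ERF115OX, took either sign), 35 lost the call and 25 gained one. For ERF115OX against WT the count of 2 called members became 1 with no filter on low values, 1 with TMM scaling, 4 with DESeq2 on recovered reads (3 higher and 1 lower), 1 with ERF115-SRDX 1 and 3 left out, and 1 with ERF115OX 1, ERF114OX 1 and WT 3 left out; both last settings were chosen after seeing the data. With ERF115OX 1, ERF114OX 1 and WT 3 left out, the 1 call was MYB28, lower, while CYP83A1 and MAM3 lost theirs. Leaving out single libraries gave 0 to 4. For ERF115-SRDX against WT the count of 6 became 3 with the photosynthesis covariate. The other 4 comparisons stayed within 1.5 times their counts of 8, 7, 5 and 8. TGG1 in ERF115-SRDX changed direction, to 2.32, with that covariate; the cause was not tested.

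With the replicate number as a block, 2 members were called in the ERF115OX line, 8 in the ERF114OX line and 6 in the ERF115-SRDX line, each against WT. Deviations of same-numbered libraries correlated between -0.40 and 0.55 (6 of 18 pairs over 0.1). Those of different-numbered libraries correlated between -0.65 and 0.52 (15 of 36 pairs over 0.1). These values show no clear pairing by number, but with 3 libraries a group of uneven shoot RNA they cannot exclude it. CYP79F1 has no value under the filter at a mean of 50. At 3 libraries a group and at most 2 reads per ERF114OX library, the size of the CYP79F1 fall ranged from -6.63 to -4.51 over settings.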

Other observations

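Some genes outside the pathway had profiles close to that of its enzymes. The average profile of the 7 enzyme and transporter members was compared with that of 20777 genes with a mean of at least 50 and outside all lists, by the root mean square difference of log2 values centred on the mean over 12 libraries; this is a description, and these genes were not tested for it. The 8 nearest were PIN5 (0.32), SBP2 (0.34), CSLG1 (0.35), CDEF1 (0.35), UMAMIT26 (0.36), AT3G22961 (0.37), DOGT1 (0.37) and BCAT-2 (0.37). The members themselves lay between 0.27 for CYP83A1 and 1.77 for CYP79F1 from their own average.

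PIN5, an auxin carrier of the endoplasmic reticulum, averaged 335 ± 8.67 normalized counts in ERF115OX, 104 ± 3.03 in ERF114OX, 240.4 ± 17.3 in ERF115-SRDX and 261 ± 50.4 in WT (SD, n = 3 each). BCAT-2, a branched-chain aminotransferase and relative of BCAT4, averaged 795 ± 28.8 in ERF115OX, 301 ± 56.6 in ERF114OX, 374 ± 16.3 in ERF115-SRDX and 928 ± 256 in WT. UMAMIT26, of a family of amino acid transporters, averaged 201 ± 8.90 in ERF115OX, 87.8 ± 12.3 in ERF114OX, 109 ± 17.2 in ERF115-SRDX and 218 ± 6.68 in WT. CDEF1, a cutinase, averaged 1093 ± 36.3 in ERF115OX, 454 ± 63.2 in ERF114OX, 951 ± 44.8 in ERF115-SRDX and 1029 ± 120 in WT.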
